A study of Mus musculus with 6 samples.

Results

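The enzymes that write, read and erase histone and DNA marks were examined as a set of 40 genes in injured mouse carotid arteries. The set holds 11 classical histone deacetylases (HDACs), 4 core genes of Polycomb repressive complex 2 (PRC2), 6 other lysine methyltransferases, 6 lysine demethylases, 5 acetyltransferases, 4 genes of DNA methylation, the 3 TET dioxygenases and Arid4b, a subunit of the Sin3 corepressor complex. A gene was measured by each probe set (a group of oligonucleotides against 1 transcript region) that the array's annotation assigns to that gene alone, and 39 of the 40 genes were measured in this way, by 92 of the 45037 probe sets tested. Suv39h1, a methyltransferase of heterochromatin, was not analysed here. Each gene is described by its probe set of highest mean over all 6 arrays, called the brightest here, and its other probe sets stand beside it. The array names 18193 genes by this rule, and these form the background of the counts.

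The methods name male mice of 10 to 12 weeks for both groups, although X- and Y-linked transcripts set NTG pools 1 and 2 apart, as given below. The strain was given as C57BL/6 in the labels and as C57BL/6J in the methods. Both groups received a wire injury of the carotid artery and were sampled 14 days later. SMC-IRF9-TG mice carried full-length mouse IRF9, a transcription factor of the interferon response, under the mouse SM22α promoter, which is active in smooth muscle cells (SMCs). NTG mice, labelled as controls, lacked this transgene. Each group had 3 arrays, and each array was hybridized with 400 ng of total RNA from a pool of 3–5 arteries. Since the labels do not tell which animals entered a pool, p-values reflect how these pools varied, and 3 arrays per group limit the precision of every value.

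Histone acetyltransferases loosen chromatin by acetylating lysines, and HDACs remove these groups, mostly as the catalytic part of corepressor complexes such as Sin3, NuRD and CoREST. PRC2 methylates histone H3 at genes kept silent, while other methyltransferases and the lysine demethylases set and remove marks of active or silent chromatin. Dnmt1 copies DNA methylation onto the new strand after replication, guided there by Uhrf1, whereas TET enzymes oxidize methylcytosine. In arteries, HDACs, PRC2 and Tet2 are known as regulators of the switch of SMCs between a contractile and a proliferating state.

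Of the 39 measured genes, Uhrf1 was higher in SMC-IRF9-TG arteries and Arid4b was lower, each by its brightest probe set, and the other 37 did not pass the test (limma, Benjamini-Hochberg adjusted p under 0.05 over all probe sets). This is 2.56% of the set in each direction. Over all genes by their brightest probe set, 3.11% were called higher and 0.511% lower, and over all probe sets 2.37% were called higher and 0.373% lower. The share called higher was therefore no larger than the background, and the share called lower rests on a single gene. At an unadjusted limma p under 0.05, 10 genes of the set had a positive difference (25.6%, against 14.9% of all genes) and 2 a negative one (5.13%, against 9.81% of all genes). The 10 were Hdac1, Hdac2, Ezh2, Eed, Setd2, Kdm2b, Dnmt1, Dnmt3a, Uhrf1 and Tet2, and the 2 were Hdac11 and Arid4b, so no class IIa HDAC and no acetyltransferase was among them. The methods' t-test gave 6 positive and 3 negative of the 39 genes without adjustment, beside 8364 of the 45037 probe sets in either direction. The levels did not overlap for 12 genes, with SMC-IRF9-TG above NTG for 9 genes of the set (23.1%, against a background of 16.1%) and below it for 3 (7.69%, against a background that was also 16.1%).

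The median difference over the set, SMC-IRF9-TG minus NTG, was 0.20 log2 units, beside -0.05 over all genes, and 26 genes of the set (66.7%, against 46.3% of all genes) had a positive difference. This lean depended on the scaling between arrays, because after quantile normalization of the deposited values the median was -0.02, beside -0.05 over all genes, and 19 genes were positive and 20 negative. The typical size of a difference was close to that of other genes, with a median absolute difference of 0.33 log2 units in the set and 0.34 over all genes. An absolute difference above 1 was seen for 5 genes of the set (12.8%, against 7.93% of all genes). The 95% interval of the difference lay within 1 log2 unit on either side of 0 for 20 of the 39 genes. For 17 of the genes that did not pass, it reached past 1, so a change of 2-fold was within the error of these arrays.

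**Figure D1:**
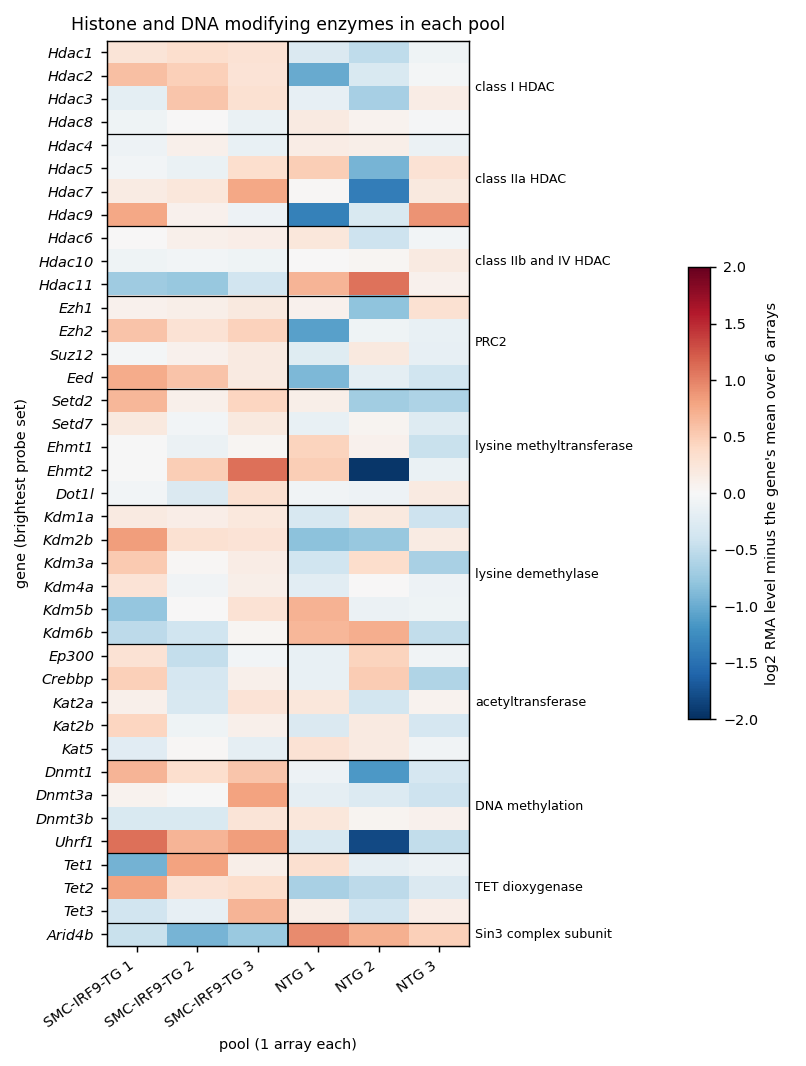
Level of each measured gene by its brightest probe set (rows, grouped by enzyme class) in each pool (columns, SMC-IRF9-TG left of NTG), as log2 RMA level minus the gene's mean over the 6 arrays. Red cells lie above and blue cells below the mean; Uhrf1 is red in all SMC-IRF9-TG pools and blue in all NTG pools, Arid4b the reverse, and NTG pool 2 holds the lowest level of 12 genes, among them Ehmt2, Hdac7 and Uhrf1.

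Several arrays stood apart and bear on every value here. Xist, the RNA of the inactive X chromosome in females, was at 2.94 to 3.72 in the SMC-IRF9-TG pools. In NTG pools 1, 2 and 3 Xist was at 9.94, 9.50 and 4.08, although the methods name male mice. Y-linked Eif2s3y was at 4.19, 4.41 and 6.48 in these NTG pools and at 6.95 to 7.40 in SMC-IRF9-TG pools. Y-linked Kdm5d was at 2.19, 2.91 and 4.68 in the NTG pools and at 4.73 to 5.39 in SMC-IRF9-TG pools. NTG pools 1 and 2 thus stood apart in X- and Y-linked transcripts, and an effect of sex cannot be told apart from the transgene there. The Actb control probe sets differed between their 3′ and 5′ ends by 1.56 to 2.50 in SMC-IRF9-TG pools and by 2.21, 7.09 and 3.04 in NTG pools 1, 2 and 3. The spiked poly-A controls averaged 4.97 and 4.54 in SMC-IRF9-TG pools 1 and 2, against 7.39 to 11.69 on the other 4 arrays. Irf9 itself had a difference of 0.30 (limma adjusted p = 0.436), and Sirt1, a deacetylase outside the set, fell by 2.29 (limma adjusted p = 0.00482). The Sirt1 probe set is in a gene table that the study selected on these samples, as are those of the cycling cell markers Pcna and Cdk1. Their directions are therefore not independent evidence. The contractile SMC markers, which define the labelled tissue, were all measured and none of 7 passed, adjusted or not (median difference 0.14, and -0.30 without NTG pool 2, with Acta2 at 13.56 ± 0.08 and 13.42 ± 0.17 in SMC-IRF9-TG and NTG arteries, SD, n = 3 each). Markers of cycling cells rose for 7 of 14 genes (median 1.49), macrophage markers for 10 of 12 (median 3.62, pool medians of 7.52 to 7.90 in SMC-IRF9-TG and 3.76 to 4.14 in NTG), fibroblast markers for 4 of 5 (median 1.84) and endothelial markers for 1 of 6 (Tie1, 1.75), whereas none of the T cell, B cell, neutrophil, adipocyte, skeletal muscle and nerve markers passed, although 3 of 4 neutrophil, 1 of 5 T cell, 2 of 5 skeletal muscle and 1 of 2 nerve markers had an unadjusted limma p under 0.05. In a pool of whole arteries, fewer cells of a type and less RNA per cell cannot be told apart.

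The promoters of the 2 genes that passed are shown first, as the DNA around an annotated start site of each, followed by the windows of the other genes with a match to an E2F site, the motif bound by the E2F factors of S phase. The RefSeq promoter table (build GRCm38.p6, 250 bases before to 50 after a start) holds 52 promoters of 35 of the measured genes. They were searched on both strands for 8-base E2F sites (TTTCCCGC, TTTCGCGC, TTTGGCGC or TTTGCCGC), for the cell cycle homology region (TTTGAA or TTCGAA) and for a short form of the interferon-stimulated response element, GAAA repeated after a gap of 2 bases. Capitals mark the match, which may be the reverse complement of the letters given. The Uhrf1 promoter is the second of its 2 in the table, at chr17:56304063-56304362 on the plus strand, and holds an E2F match at bases 66 to 73. The single Arid4b promoter is at chr13:14063534-14063833 on the plus strand and holds a match to the interferon element at bases 56 to 65. The first Uhrf1 promoter holds none of the 3 motifs.
Uhrf1 promoter: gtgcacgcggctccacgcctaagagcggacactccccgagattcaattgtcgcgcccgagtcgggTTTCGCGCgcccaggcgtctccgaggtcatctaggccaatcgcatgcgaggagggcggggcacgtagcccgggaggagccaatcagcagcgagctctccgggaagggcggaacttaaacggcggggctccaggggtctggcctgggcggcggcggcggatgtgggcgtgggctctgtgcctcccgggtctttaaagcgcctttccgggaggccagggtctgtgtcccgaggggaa
Arid4b promoter: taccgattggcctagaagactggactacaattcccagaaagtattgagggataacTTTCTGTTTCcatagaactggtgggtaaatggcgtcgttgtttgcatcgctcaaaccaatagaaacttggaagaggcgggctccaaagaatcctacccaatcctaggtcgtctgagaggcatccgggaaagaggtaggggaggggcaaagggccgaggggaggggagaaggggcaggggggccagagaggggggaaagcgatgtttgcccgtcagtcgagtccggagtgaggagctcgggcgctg

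An E2F match was found for 5 of the 35 genes (14.3%), namely Uhrf1, Dnmt1, Ezh2, Suz12 and Kat2a, and for 2.6% of all 27025 genes in the table. By promoter the shares were 9.62% of 52 and 2.26% of 32851. The compared promoters were not matched for base composition, so these shares do not show an enrichment of E2F sites. The cell cycle homology region was matched for 9 genes of the set (25.7%, against 21.7% of all genes) and the interferon element for Arid4b and Kat5 (5.71%, against 3.99% of all genes). The windows of 60 bases around the other E2F matches are at chr9:20952809-20952868 and chr9:20952574-20952633 for Dnmt1 (minus strand), chr6:47594994-47595053 for Ezh2 (minus strand), chr11:79992861-79992920 for Suz12 (plus strand) and chr11:100712493-100712552 for Kat2a (minus strand). A match describes these letters only, and binding was not measured.
Dnmt1, first window: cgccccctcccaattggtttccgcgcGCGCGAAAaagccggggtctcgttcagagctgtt
Dnmt1, second window: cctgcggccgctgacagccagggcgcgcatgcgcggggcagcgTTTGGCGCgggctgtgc
Ezh2 window: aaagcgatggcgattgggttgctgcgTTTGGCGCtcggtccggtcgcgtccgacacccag
Suz12 window: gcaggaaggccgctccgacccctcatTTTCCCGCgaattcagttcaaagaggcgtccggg
Kat2a window: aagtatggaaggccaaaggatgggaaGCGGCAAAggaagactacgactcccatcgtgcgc

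The 4 genes of DNA methylation had a median difference of 0.82 log2 units (0.51 after quantile normalization), with 1 of 4 called higher and none lower. Uhrf1, which reads hemimethylated DNA and brings Dnmt1 to it, was at 4.94, 4.53 and 4.68 in SMC-IRF9-TG pools and at 3.52, 2.04 and 3.35 in NTG pools by its brightest probe set, with pools 1, 2 and 3 in this order here and throughout. The groups were apart, and NTG pool 2 was the lowest. Uhrf1 rose by 1.74 ± 0.37 log2 units (SE), with a limma adjusted p = 0.0497. The size is uncertain, since NTG pool 2 (2.04) lay under the lower quartiles of the arrays (2.33 to 2.66), where levels may be background. Its second probe set was at 2.96, 2.88 and 2.83 in SMC-IRF9-TG pools and at 3.16, 3.85 and 3.42 in NTG pools, which is the opposite order without overlap, with a difference of -0.59 (adjusted p = 0.177). The 2 probe sets of Uhrf1 thus disagreed in direction, and the mean of both had a difference of 0.58 (adjusted p = 0.117).

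The Uhrf1 call stood close to the threshold. Without NTG pool 2, where Uhrf1 was lowest, the difference was 1.28 and the adjusted p 0.0257, and this was the single pool whose removal left the call. Leaving out NTG pool 1 gave 2.02 (adjusted p = 0.0687), NTG pool 3 gave 1.93 (adjusted p = 0.0558), and SMC-IRF9-TG pools 1, 2 and 3 gave 1.63, 1.83 and 1.76 (adjusted p = 0.177, 0.158 and 0.148). The cycling cell markers differed between the groups in the direction of the brightest Uhrf1 probe set, opposite to that of the second. Their median over 14 genes was 5.80 to 5.97 in SMC-IRF9-TG pools. In NTG pools it was 3.60, 4.04 and 4.38, so pool 1 rather than pool 2 was the lowest. Mki67 was at 6.46 ± 0.20 and 3.68 ± 0.56 in SMC-IRF9-TG and NTG arteries (SD, n = 3 each). Pcna, whose probe set is in the study's selected table, was at 10.48 ± 0.39 and 7.49 ± 0.38. Of the 14 markers 7 passed. Mcm2 and Mcm4 differed by only 0.29 and 0.30 by the brightest probe set, and by 0.92 and 0.59 by the other, without passing. Tyms differed by -0.40, at means of 2.32 and 2.73 in SMC-IRF9-TG and NTG arteries. These lie near the lower quartiles of the arrays (2.33 to 2.66), where a sign may be that of background. The part of these markers in the Uhrf1 difference was not tested.

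Dnmt1, the maintenance methyltransferase, was at 6.80, 6.46 and 6.68 in SMC-IRF9-TG pools and at 6.02, 4.98 and 5.78 in NTG pools, again without overlap and lowest in NTG pool 2. Its difference of 1.05 ± 0.28 (SE) did not pass (adjusted p = 0.0925), and its other 2 probe sets had differences of 0.34 and 0.21. Dnmt3a, a methyltransferase that sets new DNA methylation, was at 6.43, 6.35 and 7.17 in SMC-IRF9-TG pools and at 6.18, 6.08 and 5.94 in NTG pools (difference 0.58, adjusted p = 0.22). The groups did not overlap, but its 4 other probe sets ranged in difference from -0.23 to 0.65 and none passed. Dnmt3b, the second such enzyme, had differences of -0.24 and -0.14 in its 2 probe sets.

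Of the TET dioxygenases none of 3 passed, with a median difference of 0.09 (0.05 after quantile normalization, and -0.08 without NTG pool 2). Tet2, which oxidizes methylcytosine and is known as a factor of SMC differentiation, was at 7.58, 7.05 and 7.11 in SMC-IRF9-TG pools and at 6.12, 6.25 and 6.48 in NTG pools by its brightest probe set. The groups were apart by a difference of 0.96 ± 0.22 (SE), which missed the threshold (adjusted p = 0.0594). It passed in 2 of 16 alternatives, when each array was centred on its median and when dim probe sets were left out. None of the 6 fits that left out a single pool passed, and after quantile normalization the difference was 0.66 (limma adjusted p = 0.207). The second Tet2 probe set had a difference of -0.15, with overlapping groups and its highest level in NTG pool 2 (7.30). Tet1 had differences of -0.36 to 0.12 over 4 probe sets, and its brightest ranged from 3.39 to 5.13 within the SMC-IRF9-TG group. Tet3 had a difference of 0.09.

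**Figure D2:**
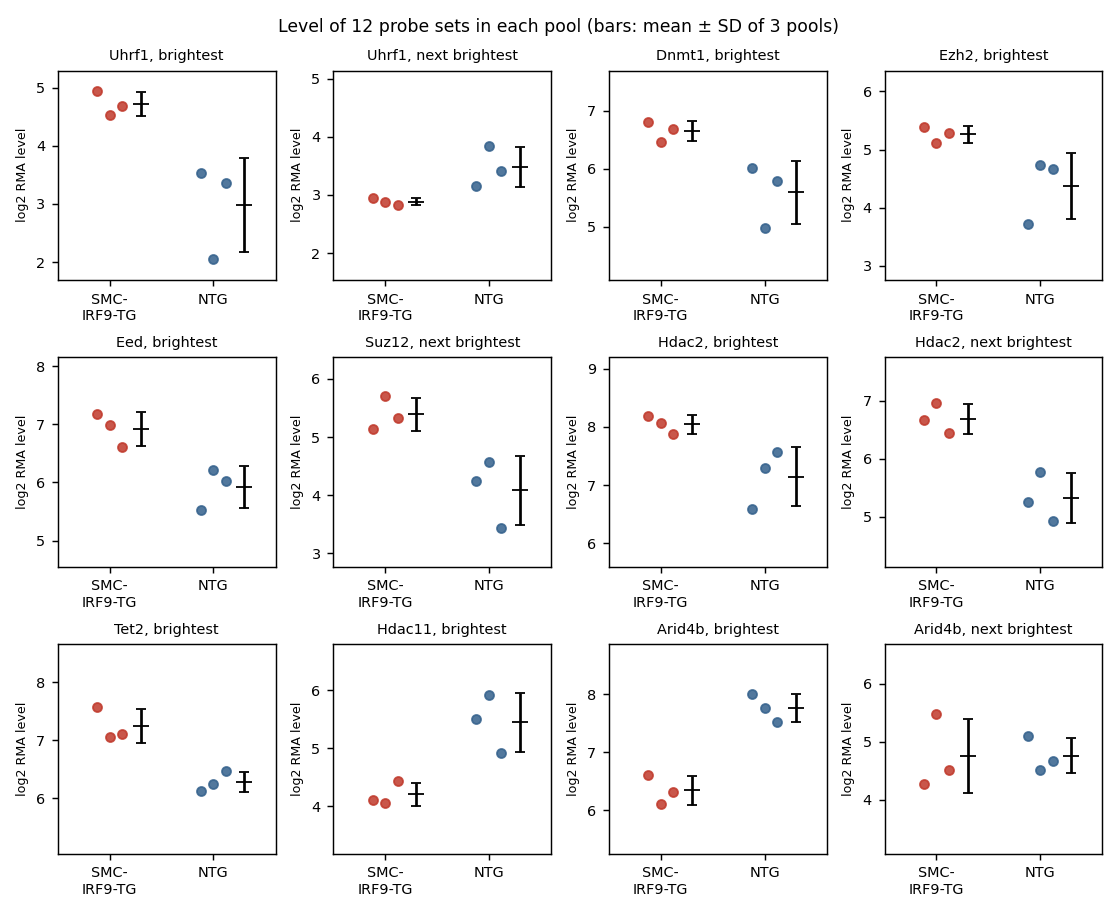
Level of 12 probe sets (panels) in each pool, as log2 RMA level, with SMC-IRF9-TG in red left of NTG in blue and bars for the mean ± SD of 3 pools; each panel spans the same number of log2 units. The groups do not overlap in 11 panels, the 2 Uhrf1 probe sets point opposite ways, and the second Arid4b probe set overlaps between the groups.

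Arid4b was the sole member called lower. It encodes an ARID and chromodomain protein that joins the Sin3 complex of Hdac1 and Hdac2. By its brightest probe set Arid4b was at 6.61, 6.12 and 6.32 in SMC-IRF9-TG pools and at 7.99, 7.76 and 7.52 in NTG pools, without overlap. Arid4b fell by 1.41 ± 0.22 log2 units (SE), with a limma adjusted p = 0.0154. This probe set is in a gene table that the study selected on these samples, so its direction is not independent evidence.

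The 5 other Arid4b probe sets did not pass. The next brightest was at 4.27, 5.48 and 4.51 in SMC-IRF9-TG pools and at 5.09, 4.51 and 4.67 in NTG pools, with overlapping groups and a difference of -0.01 (adjusted p = 0.993). Of the remaining 4, 3 had differences between -0.02 and 0.14, and the dimmest had -0.92 (adjusted p = 0.181) with NTG pool 2 highest. The mean over all 6 probe sets had a difference of -0.35 (adjusted p = 0.277). The call on the brightest was lost when NTG pool 1 was left out (-1.30, adjusted p = 0.0551). It was also lost when SMC-IRF9-TG pool 2 (-1.30, adjusted p = 0.0854) or pool 3 (-1.40, adjusted p = 0.0745) was left out, and it was kept in the other 3 such fits. Which part of the transcript each probe set covers was not analysed here.

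The 4 class I HDACs are Hdac1, Hdac2, Hdac3 and Hdac8, of which all but Hdac8 are enzymes of the Sin3, NuRD, CoREST or NCoR complexes. The brightest probe sets of the 4 had a median difference of 0.51 (0.21 after quantile normalization) and none passed. Hdac2 was at 8.19, 8.07 and 7.87 in SMC-IRF9-TG pools and at 6.59, 7.28 and 7.56 in NTG pools by its brightest probe set (difference 0.90 ± 0.27 SE, adjusted p = 0.119). The second Hdac2 probe set was at 6.66, 6.96 and 6.44 in SMC-IRF9-TG pools and at 5.26, 5.78 and 4.93 in NTG pools. Both lay higher in every SMC-IRF9-TG pool than in any NTG pool, and the second passed with a rise of 1.36 ± 0.26 (SE, adjusted p = 0.0352). It was the single one of the 53 other probe sets of the set that passed.

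This Hdac2 call was kept in a fit that left out NTG pool 2 (1.59, adjusted p = 0.019) and lost when any other pool was left out. For NTG pools 1 and 3 left out the differences were 1.33 (adjusted p = 0.0958) and 1.17 (adjusted p = 0.0552), and for SMC-IRF9-TG pools 1, 2 and 3 they were 1.38, 1.23 and 1.49 (adjusted p = 0.131, 0.16 and 0.0861). The third Hdac2 probe set had a difference of -0.18 with overlapping groups. Hdac1, the partner of Hdac2 in the same complexes, was at 7.80, 7.88 and 7.83 in SMC-IRF9-TG pools and at 7.26, 7.04 and 7.45 in NTG pools. Its single probe set was apart between the groups by 0.58 ± 0.19 (SE), which did not pass (adjusted p = 0.141). Hdac3, the enzyme of the NCoR complex, had a difference of 0.44 with overlap, and 0.22 without NTG pool 2. Hdac8, an X-linked deacetylase, was at no more than 1.93 in SMC-IRF9-TG pools and 2.11 in NTG pools, under the lower quartiles of the arrays (2.33 to 2.66), so its difference of -0.15 is of unknown size.

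The 4 class IIa HDACs are shuttling enzymes that bind MEF2 factors in muscle. None passed, their median difference was 0.30 (-0.01 after quantile normalization, and 0.11 without NTG pool 2), and no gene of the class separated the groups. Hdac5 was at 6.08, 5.99 and 6.46 in SMC-IRF9-TG pools and at 6.63, 5.20 and 6.41 in NTG pools (difference 0.10, adjusted p = 0.884), and without NTG pool 2 the difference was -0.34. Hdac7, an isoform of endothelium and smooth muscle, had a difference of 0.78 with NTG pool 2 at 4.61 and the other NTG pools at 6.01 and 6.18, and 0.29 without that pool. Hdac9 ranged from 4.27 to 6.52 within the NTG group (difference 0.51), and Hdac4 had differences of -0.33 to 0.16 over 3 probe sets.

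Among class IIb and class IV, none of 3 passed, and the median difference was -0.15 (-0.40 after quantile normalization). Hdac11, the class IV enzyme, was at 4.12, 4.06 and 4.44 in SMC-IRF9-TG pools and at 5.51, 5.91 and 4.91 in NTG pools by its brightest probe set. The groups were apart by -1.24 ± 0.28 (SE), just short of the threshold (adjusted p = 0.0562). The probe set passed in 3 of 16 alternatives. Of the 6 fits that left out a single pool, it passed only in that without NTG pool 3. The other Hdac11 probe set had a difference of 0.20 with overlapping groups (adjusted p = 0.79). Hdac10, known for deacetylating polyamines, was at 5.19, 5.22 and 5.19 in SMC-IRF9-TG pools and at 5.28, 5.31 and 5.45 in NTG pools, which is without overlap but apart by only -0.15 (adjusted p = 0.622). X-linked Hdac6, the tubulin deacetylase of the cytoplasm, had a difference of 0.16 and overlapping groups.

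All 4 PRC2 genes had a positive difference by the brightest probe set, with a median of 0.58, whereas after quantile normalization Ezh1 and Suz12 were negative and the median was 0.32, and none passed in either. Ezh1, the PRC2 methyltransferase of resting cells, was at 6.65, 6.68 and 6.75 in SMC-IRF9-TG pools and at 6.65, 5.75 and 6.87 in NTG pools (difference 0.27, adjusted p = 0.586). Without NTG pool 2 its difference was -0.07, and its 3 other probe sets were also negative (-0.37 to -0.13). Ezh2, the methyltransferase of dividing cells, was at 5.39, 5.11 and 5.28 in SMC-IRF9-TG pools and at 3.72, 4.74 and 4.66 in NTG pools. The groups of Ezh2 did not overlap (difference 0.89 ± 0.29 SE, adjusted p = 0.138), and its probe set is also in the gene table that the study selected on these samples. Eed, which binds the methylated histone tail, was at 7.17, 6.99 and 6.60 in SMC-IRF9-TG pools and at 5.53, 6.22 and 6.02 in NTG pools. It was apart by 0.999 ± 0.25 (SE, adjusted p = 0.0783), with a dim second probe set at -0.20.

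Suz12, the scaffold of PRC2, was measured by 6 probe sets. The brightest had a difference of 0.14 with overlap. The next was at 5.14, 5.71 and 5.33 in SMC-IRF9-TG pools and at 4.25, 4.57 and 3.43 in NTG pools, apart by 1.31 ± 0.31 (SE, adjusted p = 0.0683), and the fourth was apart by 0.90 (adjusted p = 0.108). Without NTG pool 2 both passed (1.55, adjusted p = 0.0407, and 1.13, adjusted p = 0.0391). The next brightest passed in only 1 of the 6 fits that left out a single pool (limma adjusted p from 0.0407 to 0.248). The 2 dimmest Suz12 probe sets were negative (-0.46 and -0.41). The 9 genes of the set that lay above NTG in every SMC-IRF9-TG pool were Hdac1, Hdac2, Ezh2, Eed, Kdm2b, Dnmt1, Dnmt3a, Uhrf1 and Tet2. Hdac10, Hdac11 and Arid4b lay below it. The macrophage, fibroblast and cycling cell markers also rose (medians 3.62, 1.84 and 1.49). Because the 9 genes were picked by their direction, sharing it with these markers carries no information. The part of these markers in the differences was not tested.

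None of the 5 other methyltransferases measured passed, and their median difference was 0.23 (-0.03 after quantile normalization). Setd7, which methylates histone H3 and other proteins, was at 8.16, 7.91 and 8.16 in SMC-IRF9-TG pools and at 7.81, 8.01 and 7.70 in NTG pools (difference 0.23, adjusted p = 0.474). Setd2, which marks transcribed gene bodies, had a difference of 0.80 ± 0.27 (SE, adjusted p = 0.152), with NTG pool 1 at 6.06 overlapping SMC-IRF9-TG pool 2 at 6.04. Ehmt2, also named G9a, was at 6.05, 6.55 and 7.16 in SMC-IRF9-TG pools and at 6.56, 4.11 and 5.93 in NTG pools. Its difference of 1.05 rested on NTG pool 2, without which it was 0.34 (adjusted p = 0.544), and its second probe set was at -0.16. Its partner Ehmt1 (-0.06) and Dot1l (-0.02), the methyltransferase of the nucleosome core, had means that differed by less than the spread between pools.

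None of the 6 demethylases passed, with a median difference of 0.28 (0.02 after quantile normalization) and a range from -0.59 to 0.94. Kdm1a, or LSD1, the demethylase of the CoREST complex, was at 7.43, 7.39 and 7.47 in SMC-IRF9-TG pools and at 6.93, 7.45 and 6.84 in NTG pools (difference 0.35, adjusted p = 0.347, and 0.54 without NTG pool 2). Its second probe set had 0.73 (adjusted p = 0.213), and 1.08 without NTG pool 2 (adjusted p = 0.0384). Kdm2b, which brings a Polycomb complex to unmethylated CpG islands, was at 6.32, 5.79 and 5.76 in SMC-IRF9-TG pools and at 4.67, 4.73 and 5.64 in NTG pools. The Kdm2b groups were apart by 0.94 ± 0.30 (SE, adjusted p = 0.136), and its second probe set had 0.71. Kdm2b passed with the mean of its probe sets and without NTG pool 3, and in no other alternative. Kdm3a (0.46), Kdm4a (0.20), Kdm5b (-0.33) and Kdm6b (-0.59), demethylases of H3 lysines, had overlapping groups. Without NTG pool 2 the difference of Kdm3a was 0.75 and that of Kdm6b -0.37. Within Kdm6b the 2 brightest probe sets had differences of -0.59 and 0.59.

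The 5 acetyltransferases had differences of -0.26 to 0.30 by the brightest probe set and a median of 0.04 (-0.13 after quantile normalization), and in each the groups overlapped. Kat2b, or PCAF, was at 7.96, 7.44 and 7.64 in SMC-IRF9-TG pools and at 7.24, 7.70 and 7.19 in NTG pools (difference 0.30, adjusted p = 0.441, and 0.46 without NTG pool 2). The coactivators Ep300 and Crebbp had differences of -0.15 and 0.16, and their 95% intervals were -0.75 to 0.45 and -0.57 to 0.90. Kat5, the enzyme of the NuA4 complex, had -0.26, and Kat2a, or GCN5, had 0.04 with 0.48 and 0.50 in its other probe sets, none of which passed.

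**Figure D3:**
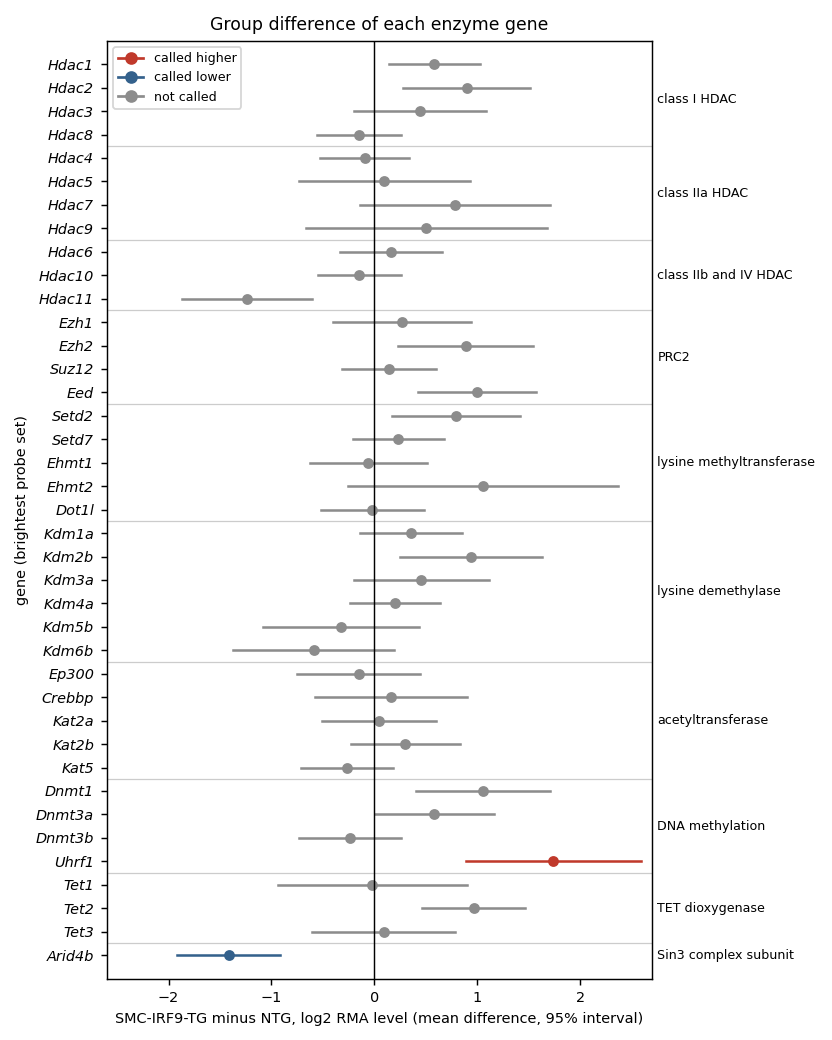
Difference of each measured gene by its brightest probe set (points, SMC-IRF9-TG minus NTG in log2 units, with the 95% interval of the limma fit as bars), grouped by enzyme class. Uhrf1 (1.74, red) and Arid4b (-1.41, blue) passed; the acetyltransferases lie between -0.26 and 0.30.

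Probe sets of a gene often differed in sign, in the set and elsewhere. Of 28 genes with more than 1 probe set, all probe sets shared a sign in 9 (32.1%, against 45.2% of the 9010 such genes on the array), and 27 of the 53 other probe sets had the sign of the brightest (50.9%, against 57.7%). Of the 53, 15 had a group mean under the highest lower quartile of the arrays (2.66), where a sign may be that of background. Of the 38 brighter ones, 22 had the sign of the brightest (57.9%, against 58.3% on the array). The spread was also uneven between the groups, since the SD over the NTG pools exceeded that over the SMC-IRF9-TG pools in 29 of 39 genes (74.4%, against 74.2% of all genes). NTG pool 2 was the lowest of the 6 pools for 12 genes of the set (30.8%, against 24.4% of all genes), and without it the median difference of the set was 0.26. The exact permutation test over the 6 arrays has 20 splits and a smallest 2-sided p of 0.1, so it could not pass any single gene.

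**Figure D4:**
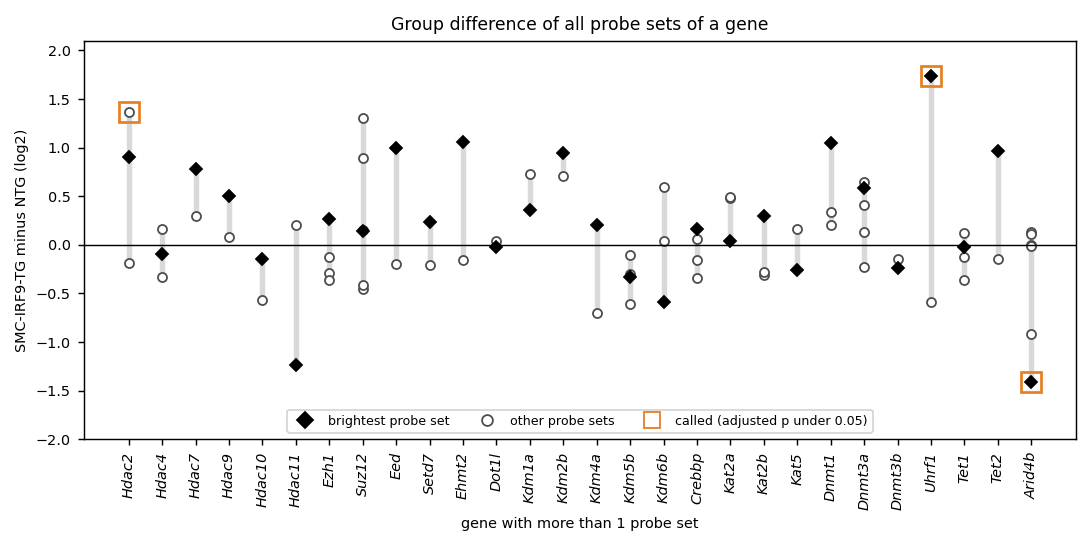
Difference of every probe set of the 28 genes with more than 1 probe set (SMC-IRF9-TG minus NTG in log2 units; filled diamonds, the brightest; open circles, the others; squares, called). Uhrf1, Hdac11, Tet2 and Kdm6b have probe sets on both sides of 0, and the called Arid4b probe set stands apart from the 4 that lie near 0.

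Other genes of the same complexes and marks were counted in lists beside the set. Of 21 genes of HDAC corepressor complexes, 1 was called higher and none lower by the brightest probe set, beside 3.11% and 0.511% of all genes (median difference 0.22). This was Sap30, a subunit of the Sin3 complex, which was at 6.03, 5.88 and 5.23 in SMC-IRF9-TG pools and at 3.42, 3.88 and 3.00 in NTG pools. Sap30 rose by 2.28 ± 0.30 (SE, adjusted p = 0.00808), while Arid4b of the same complex was lower. A second probe set of Gatad2a, a NuRD subunit, also passed (1.58, adjusted p = 0.041), with its brightest at 0.46 (adjusted p = 0.237) and 2 others negative. Of 22 further Polycomb genes, 1 was called higher by the brightest probe set, Pcgf6 (0.97, adjusted p = 0.0382), and the median was 0.11 (0.22 without NTG pool 2). The other Pcgf6 probe sets had -0.65 and -0.05. Bmi1, the Pcgf subunit of canonical PRC1, had a second probe set at 6.85, 6.81 and 6.85 in SMC-IRF9-TG pools and at 4.71, 4.58 and 5.26 in NTG pools. This rose by 1.99 ± 0.22 (SE, adjusted p = 0.0044), and the brightest Bmi1 probe set had 1.16 (adjusted p = 0.0537). Rnf2, the ubiquitin ligase of PRC1, missed the threshold with 1.38 (adjusted p = 0.0503). Jarid2, a PRC2 cofactor, passed with 2 dimmer probe sets (0.98, adjusted p = 0.0447, and 1.05, adjusted p = 0.0385), while its brightest had -0.66 (adjusted p = 0.244).

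Of 24 other lysine methyltransferases none was called (median -0.02), with 1 positive and none negative at an unadjusted limma p under 0.05, beside 14.9% and 9.81% of all genes. Of 16 other demethylases, Kdm5a, which removes methyl groups from active promoters, was called higher (1.02, adjusted p = 0.0494, median of the list 0.20), and its 5 other probe sets had differences of -0.69 to 0.28 without passing. Of 14 other acetyltransferases, Nat10 was called lower by the brighter of its 2 probe sets, the other having -0.18. It was at 4.04, 4.23 and 4.38 in SMC-IRF9-TG pools and at 6.06, 5.50 and 6.19 in NTG pools, a fall of 1.70 ± 0.24 (SE, adjusted p = 0.0101), and it too stands in the study's selected table. Nat10 acetylates cytidine in RNA as well as proteins. Of 12 further genes of DNA methylation none was called (median 0.43), with 5 positive and 1 negative at an unadjusted limma p under 0.05, beside the same 14.9% and 9.81% of all genes.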

How the data were processed

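Total RNA of 6 pools of injured carotid arteries was hybridized to 6 Affymetrix arrays. The submitters' processing notes name RMA and Affymetrix Expression Console, without versions, as the tools by which the authors computed the deposited log2 level of each probe set. RMA corrects the background, normalizes by quantiles and summarizes probes, yet the columns differ in distribution (medians 3.42 to 3.66). Quantile normalization is meant to remove a shift shared by most genes, so such a shift could not be measured here. Differences between the columns nevertheless remained, and quantile normalization of the deposited values changed the called probe sets from 1237 to 700. Detection calls were not used here. Levels of different probe sets were compared only to choose and rank those of a gene, and were pooled in medians over lists. No test set the level of a probe set against that of another.

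Of 45101 probe sets, 64 controls were left out and the rest tested without a filter. A single gene is annotated to 34945 of them, more than 1 to 932 and no symbol to 9160. The comparison used lmFit and eBayes of limma 3.58.1 in R 4.3.3, 2-sided, and p-values were adjusted by Benjamini-Hochberg over the 45037 probe sets. The study's methods name a t-test in general and no test for the array, which has few degrees of freedom, so the t-test was an alternative. The fit was tested on simulated data. Python 3.11.15 drew the figures and searched promoters.

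Values in all pools were planned for genes with a probe set that passed and for the member of highest mean in each class. Of the other lists, the largest changes that passed were planned, or the genes of highest level where none passed. That part was followed incompletely. Several lists without a passing gene name no gene, and Pcgf6 and Kdm5a are given without pool values. Names beyond the plan, such as Eed, Tet2, Hdac1, Kdm2b and Rnf2, were added after their values were seen. The members, lists, motifs and alternatives were chosen with earlier results of these data known.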

Additional observations from a re-analysis of the deposited data

How the results depend on the processing

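The number of called probe sets, 1237, was 700 after quantile normalization, 192 with a block for NTG pools 1 and 2 (high Xist) and 55 with a block for SMC-IRF9-TG pools 1 and 2 (low poly-A controls). These blocks leave 1 pool of that group to carry the difference. The methods' t-test called 1 probe set after adjustment, beside 8364 at an unadjusted p under its threshold, and 577 genes were called when the probe sets of each gene were averaged, which tests fewer features. Leaving out single pools gave 320 to 1851 probe sets.

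Genes of the set called higher numbered 1 as deposited. They were 2 with centred arrays and 2 without dim probe sets (Uhrf1 and Tet2 in both), and 0 after quantile normalization, with the t-test and with either block of pools, settings that had 4, 6, 5 (Xist) and 4 (poly-A) genes higher at an unadjusted p under 0.05. Genes called lower numbered 2 without dim probe sets and with array weights (Arid4b and Hdac11 in both), and 0 with the t-test, with either block of pools and with gene means. Leaving out single pools gave 0 to 1 called higher and 0 to 2 called lower. The median difference of the set ranged from -0.02 to 0.31 over the alternatives, beside 0.20 for the values as deposited. It was negative after quantile normalization and positive in the other alternatives. The SD of the pools' medians (0.27) was larger than the 0.20 itself, so it cannot show that the median was stable. Uhrf1 passed in 6 of 16 alternatives (adjusted p 0.0257 to 0.596) and Arid4b in 9 of 16 (0.0116 to 0.325), both with 1 sign throughout. The cause of these changes was not tested.

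The labels do not say whether replicate numbers pair the pools. Deviations of same-numbered pools correlated at -0.15, -0.0006 and 0.03, which cannot exclude a pairing. The replicate number as a block gave 730 called probe sets and the same 2 genes of the set. Precision is limited by 3 arrays per group, and no detection call bounded the dim probe sets.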
